A study of Homo sapiens with 18 samples.

Results

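AP-1 and immediate early genes were described by 10 genes: FOS, FOSL1 and FOSL2 of the FOS family, JUN, JUNB and JUND of the JUN family, and EGR1, ATF3, IER2 and IER3. The set was chosen with earlier results of these data known. The genes were matched by symbol, and all 10 were found among the 60622 genes of the deposited tables. AP-1 is a dimer of basic leucine zipper proteins, in which a FOS family protein pairs with a JUN family protein, or JUN proteins pair with each other, and binds short palindromic DNA sites in promoters and enhancers. Immediate early genes are transcribed within minutes of a growth factor or stress signal from factors already present in the cell, and their RNAs are short-lived. In lung cancer lines AP-1 is best known as an effector of RAS and MAP kinase signalling, and FOSL1 as the family member that persists in cells with a constantly active pathway.

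H1299 cells, from a non-small cell lung carcinoma that makes no p53 of its own, carried a doxycycline-inducible wild-type p53-FKBP12F36V-HA construct. AceTAGs are 2-ended molecules designed to recruit an acetyltransferase to FKBP12F36V fusions. Cells with and without induced p53-FKBP12F36V received DMSO, AceTAGp300CBP-1 (named for p300 and CBP, here the p300/CBP compound) or AceTAGPCAFGCN5-4 (named for PCAF and GCN5, here the PCAF/GCN5 compound) for 24 h. This gave 6 groups of 3 libraries, all at 24 h, a late time for genes of an immediate early response. The labels state neither the compound doses nor whether non-induced cells received doxycycline, and the titles name the p53 construct for induced samples only. The labels do not say that replicates were separate cultures, so p-values measure only the spread between these samples.

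In the coordinates of the files, which are those of GRCh38, the 3 genes with the widest range of levels lie at chr5:138465479-138469303 on the plus strand (EGR1), chr1:212565334-212620777 on the plus strand (ATF3) and chr11:65892049-65900573 on the minus strand (FOSL1).

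Regions before RefSeq starts of EGR1 and ATF3, the 2 genes with the largest rises, and of JUND are shown for reference. Each is the 250 bases before a transcription start in RefSeq on GRCh38.p14. Windows of 300 bases, from 250 before to 50 after the start, were found for 8 of the 10 genes and 9 starts, ATF3 having 2. FOSL1 and IER3 were not in that table. The windows were searched on both strands for 5 motifs: the CArG box (the core of the serum response element), the cAMP response element TGACGTCA, the AP-1 site TGANTCA, the EGR site GCGNGGGCG and the p53 half-site. Capitals mark every match, and no matches overlapped.
EGR1, chr5:138465229-138465478, plus strand: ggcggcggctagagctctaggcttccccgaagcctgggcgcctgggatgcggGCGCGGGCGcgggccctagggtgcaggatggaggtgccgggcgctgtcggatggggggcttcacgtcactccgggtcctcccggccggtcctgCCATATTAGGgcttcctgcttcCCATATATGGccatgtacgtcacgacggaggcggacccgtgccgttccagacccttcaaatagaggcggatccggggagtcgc
JUND, chr19:18281623-18281872, minus strand: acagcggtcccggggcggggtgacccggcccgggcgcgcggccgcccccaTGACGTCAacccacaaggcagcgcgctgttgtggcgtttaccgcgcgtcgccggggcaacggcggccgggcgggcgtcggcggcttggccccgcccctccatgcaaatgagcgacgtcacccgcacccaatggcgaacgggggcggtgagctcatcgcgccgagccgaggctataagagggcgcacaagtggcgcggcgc
ATF3 first start, chr1:212565157-212565406, plus strand: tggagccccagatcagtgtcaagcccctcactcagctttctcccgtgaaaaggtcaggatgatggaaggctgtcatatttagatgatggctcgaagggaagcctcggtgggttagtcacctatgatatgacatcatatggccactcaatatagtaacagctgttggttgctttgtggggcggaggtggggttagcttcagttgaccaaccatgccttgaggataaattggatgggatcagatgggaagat
ATF3 second start, chr1:212614768-212615017, plus strand: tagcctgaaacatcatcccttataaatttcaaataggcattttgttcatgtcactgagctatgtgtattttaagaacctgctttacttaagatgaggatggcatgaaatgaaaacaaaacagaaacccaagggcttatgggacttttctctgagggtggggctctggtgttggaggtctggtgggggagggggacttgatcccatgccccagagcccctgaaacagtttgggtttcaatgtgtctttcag
The EGR1 region held 2 CArG boxes, which began 105 and 83 bases before the start, and 1 EGR site, which began 198 bases before it. A CArG box was present in 1.29% of the 35116 RefSeq windows of the same length and an EGR site in 9.43%. The JUND region held 1 cAMP response element, 200 bases before the start, a motif present in 1.85% of all windows. FOSL2 had 1 AP-1 site just after its start, against 7.71% of all windows. No p53 half-site was found in the 9 windows, against 6.63% of all windows, and no searched motif was found in either ATF3 window or in those of FOS, JUN, JUNB and IER2. Both ATF3 starts lay inside the span given above for the gene. Any other ATF3 start was not searched, so these windows cannot stand for every ATF3 promoter. For no gene were bases outside the windows, or variants of the motifs with other letters, searched. These matches describe the letters only, and nothing about binding was measured.

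Total counts ran from 9.1 to 29.2 M per library, and the shallowest was the third library of non-induced DMSO cells. The third library of induced DMSO cells stood apart: it lay at -36.7 on the second principal component while the other 17 libraries lay between -8.57 and 9.89, and mitochondrially encoded genes took 0.714% of its counts against 1.84% and 2.14% in the other libraries of its group. For comparisons that use this group, the calls among the 10 genes are therefore also given without that library. Values of the uncalled genes without it are mostly not printed, and family shares and sums include it. The epithelial keratins KRT8 and KRT18 and the mesenchymal marker VIM were present in every library, whereas the epithelial markers EPCAM and CDH1 reached at most 3 and 4 counts. Of 12 markers of immune, endothelial and fibroblast cells, 10 stayed below 1 CPM (counts per 1000000 counts) in every library, PTPRC had no count at all, and the highest value was 1.56 CPM (DCN). Some markers of the line itself differed between groups: on induction VIM fell by 0.51 on the log2 scale, and with the p300/CBP compound in induced cells KRT18 fell by 0.74, and their part in the results on the 10 genes was not tested. In bulk RNA, fewer cells with a transcript and less of it per cell cannot be told apart.

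Levels differed widely between the genes. Per kilobase of exon, in non-induced DMSO cells, FOSL1 stood highest at 169 ± 10.3 CPM per kilobase (SD, n = 3), followed by IER2 at 74.4 ± 1.01, JUND at 51.0 ± 0.702 and JUNB at 45.8 ± 3.08. JUN, EGR1 and IER3 were between 21.8 and 25.1, and FOSL2 was at 10.9 ± 0.0494. FOS at 2.48 ± 0.0898 and ATF3 at 1.98 ± 0.235 were the lowest, so the gene that gives the FOS family its name was one of its minor members at this time. FOSL1 supplied 92.5% ± 0.351 (SD, n = 3) of the summed FOS family level per kilobase in these cells, FOSL2 5.99% ± 0.323 and FOS 1.36% ± 0.0730, while FOSB supplied 0.117% ± 0.0385. In the JUN family no member dominated: JUND supplied 41.9% ± 1.77, JUNB 37.5% ± 1.33 and JUN 20.6% ± 1.27. With p53 induced, in DMSO, the FOSL1 share was 87.1% ± 1.24, below every non-induced DMSO library, and the FOS share was 3.31% ± 0.456, above every one of them. The summed level of FOS, FOSL1 and FOSL2 was 182 ± 10.4 CPM per kilobase without induction and 97.0 ± 6.72 with it, and that of JUN, JUNB and JUND was 122 ± 4.23 and 139 ± 18.96. The JUN family sum thus lay below the FOS family sum in every non-induced DMSO library and above it in every induced one. In induced DMSO cells the JUN family sum ran from 124 to 160 CPM per kilobase, the highest being that of the third library, which stood apart. These shares and sums compare RNA, not protein, and were not tested.

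**Figure D1:**
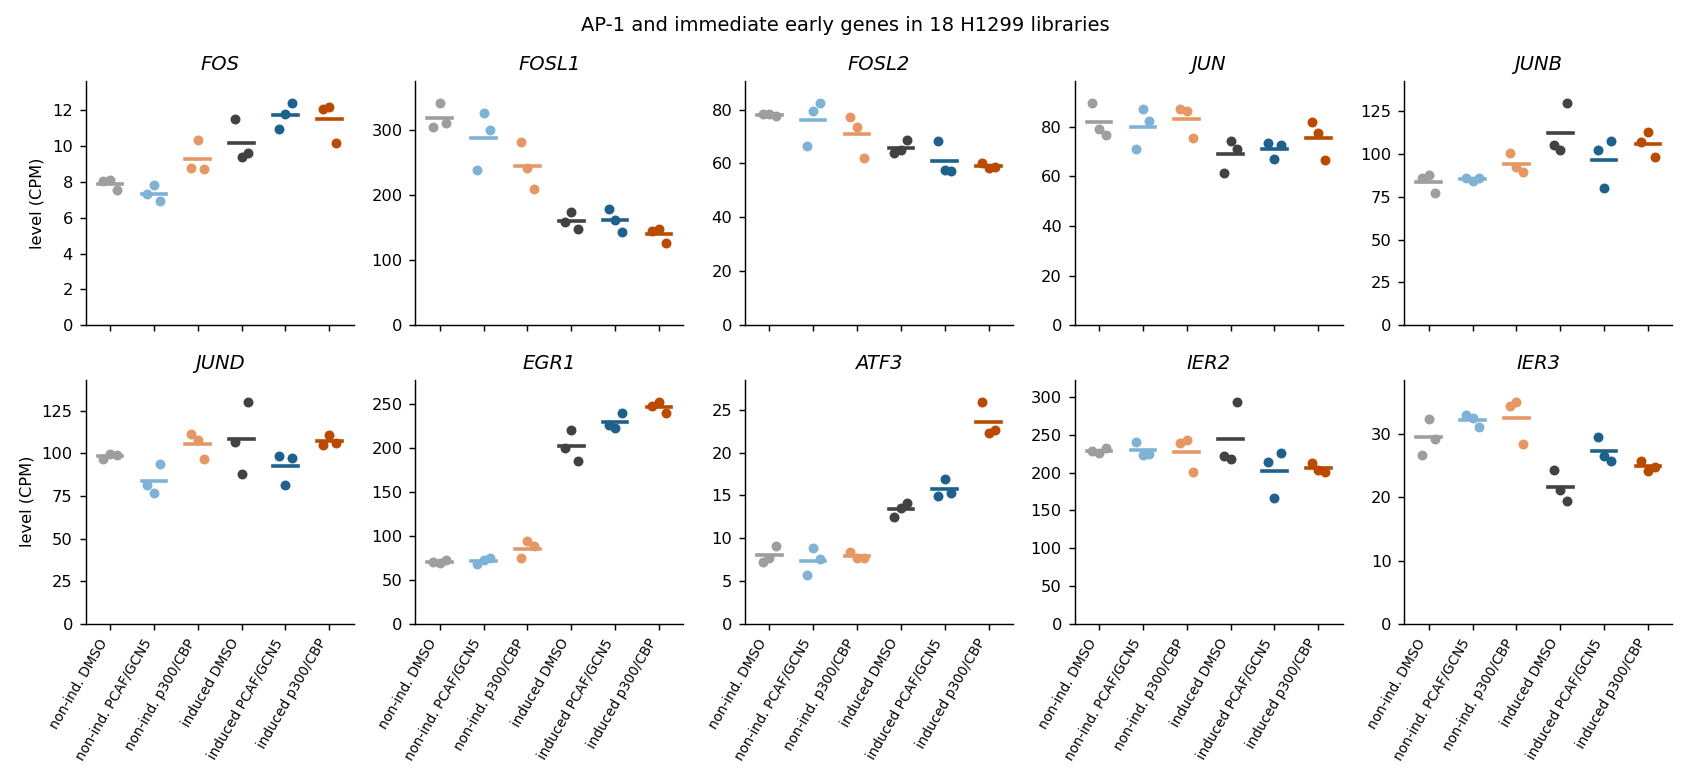
Level of each of the 10 genes in CPM (linear axis from 0) in the 6 groups, with 1 point per library and a bar at the group mean. EGR1 and ATF3 lie higher and FOSL1 lower in every induced library than in every non-induced one, and ATF3 is highest in the 3 induced libraries given the p300/CBP compound, at 22.3 to 25.97 CPM.

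**Figure D2:**
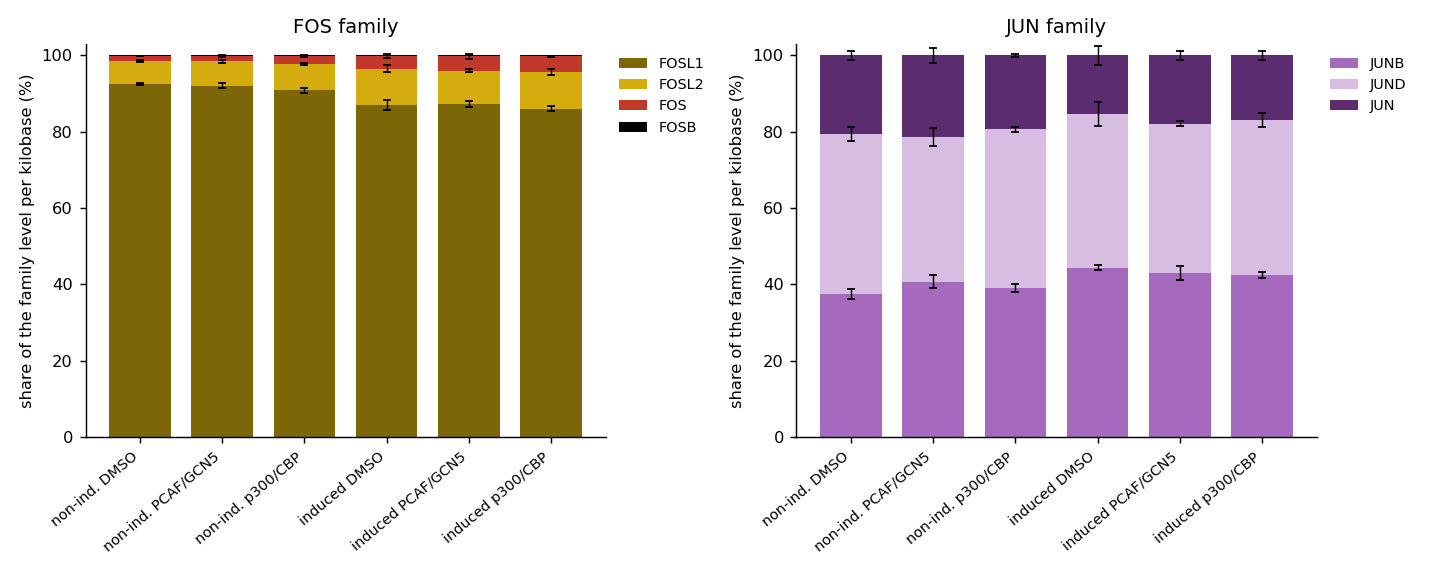
Mean share (percent, stacked from 0 to 100) of each gene in the summed level per kilobase of exon of its family in the 6 groups, with error bars of 1 SD over 3 libraries drawn at the top of each segment. FOSL1 makes up 86.0% to 92.5% of the FOS family in the group means, and no JUN family gene passes 44.4%.

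Induction of p53 in DMSO was the comparison that moved most of the genes: EGR1, ATF3 and JUNB rose, and FOSL1, FOSL2 and IER3 fell. These 6 of 10 genes had an adjusted p below 0.05, against 13.8% of the 15055 genes tested. The 3 that rose compare with 6.01% of all genes called higher and the 3 that fell with 7.77% called lower. The median log2 fold change was 0.11 over the 10 genes and 0.0093 over all genes.

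Among the FOS family, FOSL1, the predominant member, showed the largest fall. Its levels were 305, 341 and 310 CPM without induction and 158, 174 and 147 CPM with it. The groups were far apart, and FOSL1 was about 0.498-fold (95% interval 0.441 to 0.563) of its non-induced level (log2 fold change -1.005, SE 0.08, adjusted p = 7.0e-05). FOSL2, which lacks a strong activation domain of the kind found in FOS, was at 78.3, 78.3 and 77.7 CPM without induction and at 63.9, 64.9 and 68.6 CPM with it. Its libraries did not overlap either, but the fall was small (log2 fold change -0.25, SE 0.06, adjusted p = 0.0277). FOS itself was at 8.06, 8.08 and 7.58 CPM without and 11.5, 9.42 and 9.64 CPM with induction, again without overlap, but its log2 fold change of 0.35 (SE 0.12) missed the threshold (adjusted p = 0.0928).

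In the JUN family the 3 genes had log2 fold changes of different sign. JUNB, often described as a brake on JUN activity, rose from 86.1, 87.9 and 77.4 CPM to 106, 102 and 130 CPM (log2 fold change 0.42, SE 0.10, adjusted p = 0.0252). JUN, the family member with the strongest transcriptional activity, was at 89.5, 79.2 and 76.7 CPM without and 61.5, 74.4 and 70.9 CPM with induction. These values did not overlap, but the log2 fold change of -0.26 (SE 0.09) missed the threshold (adjusted p = 0.103). JUND, the member that is expressed steadily in most resting cells, had libraries at 107, 87.6 and 130 CPM with induction, on both sides of the 96.8 to 99.4 CPM measured without (log2 fold change 0.13, 95% interval -0.15 to 0.41, adjusted p = 0.531).

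EGR1, a zinc finger transcription factor that is a classical serum response gene, had the smallest adjusted p of the 10. It was at 70.0, 69.3 and 72.3 CPM without induction and at 200.2, 221 and 185 CPM with it, a 2.85-fold rise (95% interval 2.53 to 3.21; log2 fold change 1.51, SE 0.08, adjusted p = 8.7e-06). ATF3, a stress-induced basic leucine zipper factor that can pair with JUN proteins and is also known as a p53-responsive gene, was at 7.22, 7.69 and 9.05 CPM without and 12.5, 13.5 and 14.1 CPM with induction. The 3 induced libraries all exceeded the non-induced ones, by 1.70-fold on the fitted scale (95% interval 1.41 to 2.05; log2 fold change 0.76, SE 0.12, adjusted p = 0.00351).

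The remaining pair, IER2 and IER3, are immediate early genes outside both families; IER3 is known as a regulator of apoptosis and of stress signalling. IER3 fell from 26.7, 32.4 and 29.3 CPM to 24.4, 21.1 and 19.4 CPM (log2 fold change -0.45, SE 0.11, adjusted p = 0.0309). IER2 was at 229, 226 and 232 CPM without and 222, 217 and 294 CPM with induction (log2 fold change 0.09, 95% interval -0.16 to 0.33, adjusted p = 0.645). The third induced library was the highest of its group for IER2, JUNB and JUND.

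The calls of EGR1, FOSL1 and ATF3 held under all 11 alternatives of scaling, test, filter, fit and left-out library. Those of FOSL2, JUNB and IER3 did not: they held under 5, 7 and 6 of the 11. FOSL2 lost its call without either of the induced libraries 1 and 2 (adjusted p = 0.0996 and 0.0684) or any non-induced library (0.131, 0.137 and 0.103, for libraries 1 to 3), JUNB without any non-induced library (0.0867, 0.0809 and 0.108), and IER3 without induced library 2 (0.0719) or any non-induced library (0.0592, 0.165 and 0.103). Without the third induced library, the one that stood apart, 8 of the 10 genes were called, against 32.5% of all genes: FOS (log2 fold change 0.39, adjusted p = 0.00994) and JUN (-0.29, adjusted p = 0.000129) joined the 6.

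**Figure D3:**
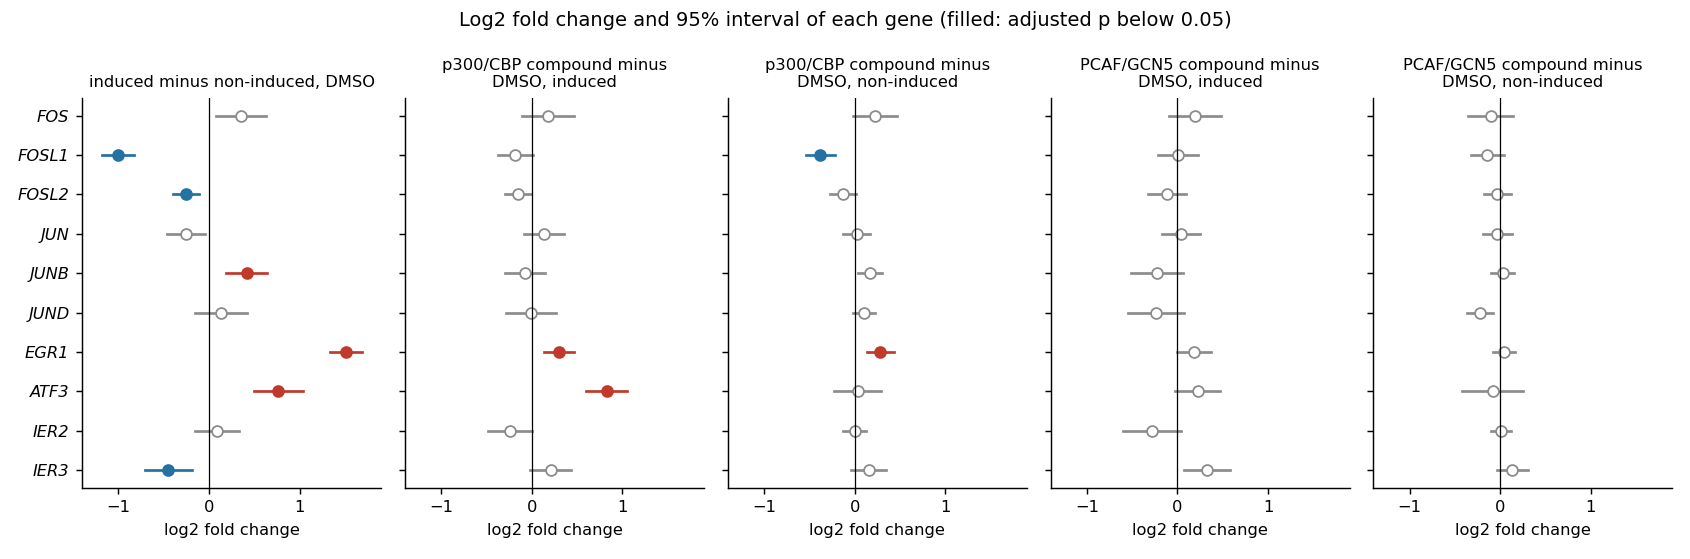
Log2 fold change (x axis) and 95% interval of each of the 10 genes (y axis) for induction in DMSO and for each compound against DMSO in each state; filled points have an adjusted p below 0.05, red for higher and blue for lower. Filled points number 6 for induction, 2 for the p300/CBP compound in each state and none for the PCAF/GCN5 compound.

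In induced cells the p300/CBP compound raised ATF3, and EGR1 at the edge of the threshold, while no FOS or JUN family gene was called. These 2 of 10 genes compare with 5.98% of 15019 genes called in either direction and 2.94% called higher. ATF3 libraries were at 25.97, 22.3 and 22.7 CPM with the compound, all above the 12.5 to 14.1 CPM in DMSO. The rise was 1.77-fold (95% interval 1.51 to 2.07; log2 fold change 0.83, SE 0.10, adjusted p = 0.00210). It was called under all 11 alternatives, with an adjusted p of at most 0.0188.

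EGR1 was at 248, 253 and 239 CPM with the compound in induced cells, above the 200.2, 221 and 185 CPM of DMSO. The groups did not overlap, and the difference was 1.23-fold (95% interval 1.10 to 1.38; log2 fold change 0.30, SE 0.07, adjusted p = 0.0490). The call held under 5 of 11 alternatives. It was lost with the size factors of DESeq2 (adjusted p = 0.05002), without each of the compound's libraries (0.187, 0.224 and 0.163, for libraries 1 to 3) and without DMSO library 1 (0.122). Without DMSO library 3 it was kept (log2 fold change 0.24), and FOSL1 (-0.24, adjusted p = 2.9e-05) and JUND (0.15, adjusted p = 0.0304) were then called as well, against 21.2% of all genes.

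The other 8 genes had adjusted p-values from 0.200 (FOSL2) to 0.981 (JUND) in that comparison. FOSL1 was at 145, 148 and 127 CPM against 158, 174 and 147 CPM in DMSO, and FOSL2 at 60.1, 58.3 and 58.5 CPM against 63.9, 64.9 and 68.6 CPM. Both had log2 fold changes below 0, of -0.18 (95% interval -0.37 to 0.0079) and -0.15 (-0.30 to -0.0069). IER2 libraries with the compound, at 201 to 213 CPM, all lay below those in DMSO (log2 fold change -0.24, adjusted p = 0.223), and the highest DMSO value was again that of the third library. The median log2 fold change of the 10 genes was 0.06, against -0.0029 for all genes.

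In cells without induction the p300/CBP compound lowered FOSL1 and raised EGR1, and ATF3 did not pass. These 2 of 10 compare with 9.89% of 14943 genes called, 3.43% higher and 6.46% lower. FOSL1 was at 281, 242 and 210 CPM with the compound, below the 305 to 341 CPM of DMSO in every library (log2 fold change -0.38, 0.769-fold, 95% interval 0.688 to 0.860, adjusted p = 0.00423). EGR1 was at 74.3, 94.0 and 88.0 CPM against 70.0, 69.3 and 72.3 CPM in DMSO (log2 fold change 0.28, 1.22-fold, 95% interval 1.10 to 1.35, adjusted p = 0.0194). The first compound library was thus close to the DMSO values and the other 2 well above them.

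FOSL1 kept its call under 9 of 11 alternatives, missing it in the fit of all 6 groups (adjusted p = 0.0534) and without DMSO library 2 (0.0519). EGR1 kept it under 7, missing it without compound library 2 (0.138) and without each DMSO library (0.10002, 0.110 and 0.0638, for libraries 1 to 3). ATF3 was at 8.39, 7.70 and 7.69 CPM with the compound, inside the 7.22 to 9.05 CPM range of DMSO (log2 fold change 0.03, 95% interval -0.23 to 0.29). JUNB libraries, at 89.8 to 101 CPM, all exceeded the 77.4 to 87.9 CPM of DMSO, yet missed the threshold (log2 fold change 0.17, adjusted p = 0.0918). Without compound library 3, JUNB (adjusted p = 0.0130), JUND (0.0206) and IER3 (0.0346) were called in addition. This brought the count to 5, against 11.0% of all genes. FOSL2 was called without compound library 1 (log2 fold change -0.20, adjusted p = 0.0454), where 15.8% of all genes were called. Without DMSO library 2 none of the 10 was called, against 3.5% of all genes.

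The PCAF/GCN5 compound changed none of the 10 genes in either state by edgeR, where 0.345% of 15078 genes were called in induced cells and 0.0199% of 15100 in non-induced cells. With DESeq2 the count was also 0 in both, against 0.849% of all genes in induced and 0.0397% in non-induced cells. Without the third DMSO library it was 0 in induced cells as well, against 0.743% of all genes. At an unadjusted p below 0.05 there was 1 of the 10 in each state, against 1530 of the 15078 genes in induced and 959 of the 15100 in non-induced cells. In induced cells this was IER3, at 29.5, 26.6 and 25.7 CPM against 24.4, 21.1 and 19.4 CPM in DMSO (log2 fold change 0.33, 95% interval 0.07 to 0.58, adjusted p = 0.459). The values did not overlap, and the authors' deposited table gave this gene an adjusted p of 0.0222 in that comparison. In non-induced cells it was JUND, at 81.2, 77.0 and 93.5 CPM against 96.8 to 99.4 CPM in DMSO (log2 fold change -0.22, 95% interval -0.37 to -0.08, adjusted p = 0.779).

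ATF3 and EGR1 in induced cells lay above DMSO under the PCAF/GCN5 compound as well, without passing. ATF3 libraries were at 15.0, 16.9 and 15.3 CPM, against at most 14.1 CPM in DMSO (log2 fold change 0.22, 95% interval -0.03 to 0.47, adjusted p = 0.506). EGR1 libraries were at 227, 223 and 240 CPM, against at most 221 CPM (log2 fold change 0.18, 95% interval -0.0049 to 0.37, adjusted p = 0.488). Both compounds were compared with the same DMSO libraries, so their differences from DMSO are not independent.

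Set directly against each other in induced cells, the compounds differed at ATF3 alone among the 10 genes, with 4.12% of 14983 genes called and 1.87% called higher with the p300/CBP compound. ATF3 was 1.51-fold higher with the p300/CBP compound (95% interval 1.32 to 1.73; log2 difference 0.60, SE 0.09, adjusted p = 0.000965), its 3 libraries all above the 3 of the PCAF/GCN5 compound, and all 11 alternatives called it. For EGR1 the log2 difference was 0.11 (95% interval -0.0004 to 0.22, adjusted p = 0.307), so the interval admits differences from none to 0.22. JUND libraries did not overlap, at 105 to 111 CPM with the p300/CBP compound and 81.2 to 98.3 CPM with the other (log2 difference 0.22, adjusted p = 0.0969). FOSL1 was lower on average, at 139.9 against 161 CPM, with overlapping libraries (log2 difference -0.20, 95% interval -0.36 to -0.04, adjusted p = 0.193). Doses are not stated in the labels, so these are differences between the treatments as applied.

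In non-induced cells no gene of the 10 was called by edgeR between the compounds, where 1.09% of 15131 genes were. At an unadjusted p below 0.05 there were 5 of the 10, against 2254 of the 15131 genes. DESeq2 called 1 of the 10, JUND, against 2.93% of all genes. JUND was at 111, 108 and 96.7 CPM with the p300/CBP compound, all above the 81.2, 77.0 and 93.5 CPM of the PCAF/GCN5 compound (log2 difference 0.33, 95% interval 0.16 to 0.50, adjusted p = 0.0589 by edgeR and 0.0100 by DESeq2). FOS libraries did not overlap either, at 8.71 to 10.4 CPM against 6.94 to 7.83 CPM (log2 difference 0.34, adjusted p = 0.228). ATF3 had overlapping libraries there, with a log2 difference of 0.11 (95% interval -0.22 to 0.44).

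Whether a compound acted differently in the 2 states was tested directly as an interaction. For the p300/CBP compound ATF3 passed and the other 9 genes did not, with 1.28% of 15618 genes called and 1.09% called higher. The effect on ATF3 was larger in induced cells by 0.81 on the log2 scale (SE 0.15, 95% interval 0.49 to 1.13, adjusted p = 0.0110). All 17 alternatives kept the call, with adjusted p-values from 0.000638 to 0.0407 and differences from 0.73 to 0.87. The effect on EGR1 was almost equal in both states, 0.30 and 0.28, with an interaction of 0.02 (95% interval -0.22 to 0.26, adjusted p = 0.959). FOSL1 was called without induction and not with it, but that difference, 0.21 (95% interval -0.08 to 0.49), had an adjusted p of 0.636. JUNB had the interaction with the next smallest adjusted p, -0.24 (95% interval -0.50 to 0.02, adjusted p = 0.536). For the PCAF/GCN5 compound no gene of the 10 was called, by edgeR or DESeq2. Of 15813 genes, edgeR called 0.0696% and DESeq2 0.323%. None of the 10 had an unadjusted p below 0.05, against 1148 of the 15813.

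**Figure D4:**
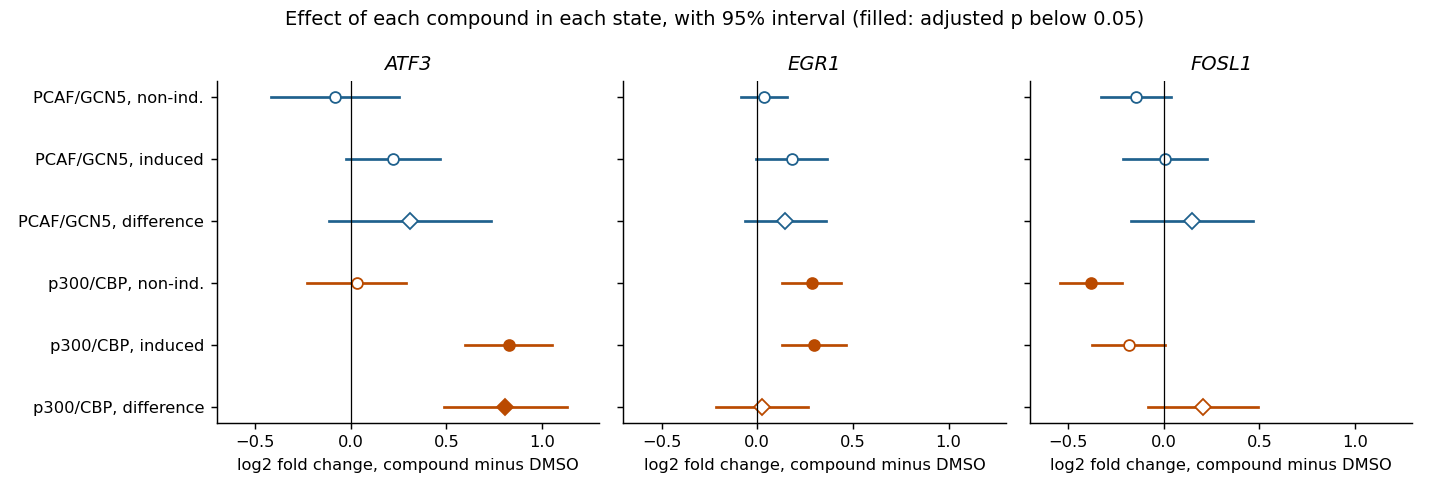
Log2 fold change of each compound against DMSO (circles) in non-induced and induced cells and the difference between the states (diamonds), with 95% intervals, for ATF3, EGR1 and FOSL1; filled points have an adjusted p below 0.05. The ATF3 effect of the p300/CBP compound is 0.03 without and 0.83 with induction, whereas its EGR1 effect is 0.28 and 0.30.

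**Figure D5:**
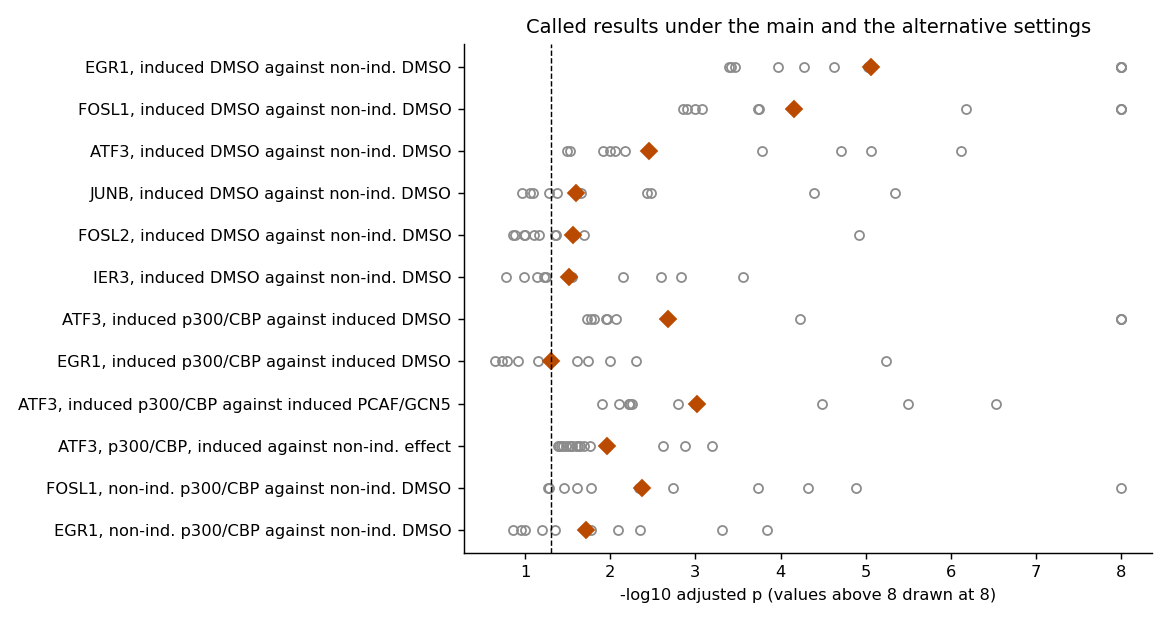
Adjusted p (x axis, as -log10, with values above 8 drawn at 8) of the 12 called results under the reported setting (diamonds) and under 11 or, for the interaction, 17 alternatives (circles); the dashed line marks 0.05. All 4 results for ATF3, and those for EGR1 and FOSL1 on induction, stay to the right of the line, and the other 6 cross it.

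Ordering the groups by level placed the 6 conditions differently for each gene. For ATF3 the order was PCAF/GCN5 compound, p300/CBP compound and DMSO without induction (7.35, 7.93 and 7.99 CPM on average), then DMSO, PCAF/GCN5 and p300/CBP with induction (13.4, 15.7 and 23.6 CPM). The first 3 overlapped each other, and every later step was free of overlap with the one before it. EGR1 was ordered DMSO, PCAF/GCN5 and p300/CBP in each state, from 70.5 to 85.4 CPM without and from 202 to 247 CPM with induction. The 2 compounds overlapped in each state. FOSL1 ran nearly the other way, from 319 CPM in non-induced DMSO cells to 139.9 CPM in induced cells with the p300/CBP compound, with a gap without overlap only between the 2 states. For JUN (group means from 68.9 to 83.0 CPM), JUND (83.9 to 108 CPM), IER2 (202 to 244 CPM), FOSL2 (59.0 to 78.1 CPM) and IER3 (21.7 to 32.6 CPM) the libraries of neighbouring groups overlapped at every step.

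Replicate spread also differed between the genes and groups. The coefficient of variation was 0.453% for FOSL2, 1.36% for IER2 and 1.38% for JUND in non-induced DMSO cells, but 17.5% for IER2 and 19.8% for JUND in induced DMSO cells, where the third library was the high one. ATF3, with 80 to 557 counts per library, varied by 5.05% to 21.7%, and FOS, with 67 to 321 counts, by 3.62% to 11.3%.

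JUNB, IER2 and IER3 share exon bases with genes on the opposite strand (JUNB with HOOK2 over 259 of its 1830 bases, IER3 with IER3-AS1 and HCG20, IER2 with AC011446.2 and AC011446.3), and whether counting used strand is not given in the sources used here. Reads of the overlapped bases therefore cannot be told apart for these genes. Over all libraries JUNB had 40172 counts and HOOK2 5809, IER2 92405, and IER3 11639 against 373 for IER3-AS1.

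Genes around the AP-1 members were described by 4 further lists, chosen with earlier results known. Of 13 other basic leucine zipper genes that can pair with FOS or JUN proteins, or are close relatives (FOSB, JDP2, ATF2, BATF and MAF genes among them), 10 had enough counts to test, and none was called by edgeR in any of the 9 comparisons. At an unadjusted p below 0.05 there were 0 to 2 per comparison, against 959 of 15100 to 4308 of 15055 genes. DESeq2 called 1, on induction, against 15.4% of all genes. Leaving out 1 library there gave 0 to 2 by edgeR, against 5.66% to 32.5% of all genes. Of 17 upstream genes (SRF and its ELK and MRTF partners, CREB1 and MAP kinases), edgeR called 1 in 1 comparison: MAPKAPK2, a kinase downstream of p38, was higher in induced cells under the p300/CBP compound than under the other (log2 difference 0.21, adjusted p = 0.0475, against 4.12% of all genes called). MAPKAPK2 kept its call in 4 of 11 alternatives. In the other 8 comparisons 0 to 4 of the 17 had an unadjusted p below 0.05, against 959 of 15100 to 4308 of 15055 genes. DESeq2 called none of the 17 in those comparisons, against 0.0397% to 15.4% of all genes. Other settings called up to 2 with the p300/CBP compound in induced cells (3.53% to 13.8% of all genes). On induction they called up to 2 (9.65% to 21.6%). With that compound in non-induced cells they called up to 1 (3.84% to 9.86%), as did leaving out 1 library (3.5% to 15.8%). For its interaction, leaving out 1 library called up to 1 (0.775% to 2.73%). Without induced DMSO library 3, edgeR called 5 of the list with the p300/CBP compound in induced cells and 4 on induction. Of all genes, 21.2% and 32.5% were then called.

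Other immediate early genes, 25 in the list and 24 or 25 tested, moved in both directions. On induction 7 rose and 2 fell, with a list median of -0.08, where 13.8% of all genes were called. The 9 became 17 without induced DMSO library 3, where 32.5% of all genes were called. They became 5 without non-induced DMSO library 1 or library 2, where 6.14% and 5.66% were. IER5, a transcriptional coregulator related to IER2, rose from 32.7 to 119 CPM on average (log2 fold change 1.87, SE 0.21, adjusted p = 0.000524), while its libraries in induced DMSO cells spread from 89.2 to 166 CPM. CSRNP1 rose (0.82), and the Krüppel-like factors KLF6 (-0.59) and KLF2 (-0.62) fell.

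With the p300/CBP compound in induced cells 4 of the 25 rose and 1 fell, where 5.98% of all genes were called. The 5 became 13 without induced DMSO library 3, where 21.2% of all genes were called. They became 3 without induced DMSO library 1 or 2 (3.44% and 4.91% of all genes) or treated library 2 or 3 (1.84% and 1.72%). BHLHE40, a circadian and hypoxia-linked repressor, rose from 13.8 to 22.7 CPM (log2 fold change 0.72, adjusted p = 0.00160), the kinase gene PLK2 from 31.8 to 54.6 CPM (0.79, adjusted p = 0.00347) and ARC from 0.730 to 2.19 CPM (1.58, adjusted p = 0.0317). ARC kept its call in 6 of 11 alternatives, and BHLHE40 and PLK2 in all 11. KLF4 fell from 17.7 to 9.67 CPM (-0.86, adjusted p = 0.00415). In non-induced cells the same compound raised 3, among them CCN2 (0.34, adjusted p = 0.000162) and BHLHE40 (0.50, adjusted p = 0.00530), and lowered IER5 (-0.37, adjusted p = 0.0170). These 4, against 9.89% of all genes, became 2 without non-induced DMSO library 1 or 2 or treated library 2. The shares of all genes called were then 3.86%, 3.5% and 4.55%, and the IER5 call held in 6 of 11 alternatives.

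Under the PCAF/GCN5 compound PLK2 rose in induced cells (0.54, adjusted p = 0.0461), where 0.345% of all genes were called. The PLK2 call held in 6 of 11 alternatives and was lost without any 1 of the 3 treated libraries or without induced DMSO library 1 or 2. In non-induced cells edgeR and DESeq2 called none, against 0.0199% and 0.0397% of all genes. There 3 had an unadjusted p below 0.05, against 959 of 15100 genes. Between the compounds in induced cells 3 were higher with the p300/CBP compound, led by BHLHE40 (0.63, adjusted p = 0.000300), and 2 were lower, led by KLF4 (-0.53, adjusted p = 0.00875). Of all genes 4.12% were called. Leaving out 1 library gave 2 to 6 calls, against 1.55% to 7.15% of all genes. The count was 2 without library 1 or 2 of the p300/CBP compound, and 3 without its library 3 or library 1 of the other compound. In non-induced cells IER5 was the 1 gene called (-0.46, adjusted p = 0.0478, against 1.09% of all genes). That call held in 4 of 11 alternatives and was lost without library 2 or 3 of the p300/CBP compound or any 1 of the other compound's 3.

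The last list held 16 genes described as AP-1 targets, of which 11 or 12 were tested. On induction IL11 and TIMP1 rose and CD44 and PHLDA1 fell, so the 4 called genes moved in both directions, where 13.8% of all genes were called. The IL11 call held in 5 of 11 alternatives and the other 3 in all 11. With the p300/CBP compound in induced cells AREG and LIF rose and PHLDA1 and TIMP1 fell, against 5.98% of all genes called. The 4 became 8 without induced DMSO library 3, where 21.2% of all genes were called. They became 2 without induced DMSO library 1 (3.44% of all genes) or treated library 1 or 3 (2.18% and 1.72%). AREG and PHLDA1 kept their calls in all 11 alternatives, and LIF and TIMP1 in 6. AREG, an epidermal growth factor receptor ligand, was at 0.297 CPM in DMSO, from 6 to 8 counts per library, and at 2.91 CPM with the compound, from 54 to 72 counts (log2 fold change 3.27, SE 0.29, adjusted p = 0.000507). PHLDA1 fell from 258 to 189 CPM (-0.44, adjusted p = 0.00446).

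Between the compounds in induced cells, where 4.12% of all genes were called, AREG was higher under the p300/CBP one (2.67, adjusted p = 4.4e-05). In that comparison 5 targets were lower, with PHLDA1 (-0.40) and TIMP1 (-0.34) the next in adjusted p. No target was called for either compound against DMSO in non-induced cells, or for the PCAF/GCN5 compound in induced cells, by edgeR. There 1 or 2 had an unadjusted p below 0.05, against 959 of 15100 to 3642 of 14943 genes. DESeq2 called 1 for the p300/CBP compound in non-induced cells, against 9.44% of all genes. It called none for the PCAF/GCN5 compound, against 0.849% in induced and 0.0397% in non-induced cells. Median log2 fold changes of the list were -0.10 on induction and -0.18 with the p300/CBP compound in induced cells.

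Genes whose 6 group means followed those of a member most closely were sought among 12756 genes for the 3 members whose group means spanned more than 1 on the log2 scale. For FOSL1, which spanned 1.19, they were HELLS, ZNF93 and UBE2T, with root mean square differences of 0.0258, 0.0436 and 0.0450 on the log2 scale over the 6 groups. For EGR1, which spanned 1.81, they were SLITRK5, ASTN2 and SLC4A11 (0.0560, 0.0668 and 0.103), and for ATF3, which spanned 1.69, SLC25A45, FBXO22 and IKBIP (0.0836, 0.0855 and 0.0855). No member was among the 3 genes closest to another.

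In the authors' deposited tables, which come from a DESeq2 fit of their own, the directions for the called compound effects were the same. They gave ATF3 a log2 fold change of 0.82 (adjusted p = 3.1e-08) and EGR1 0.29 (adjusted p = 0.00178) for the p300/CBP compound in induced cells, where 19.7% of genes with an adjusted p were below 0.05 in that table. For non-induced cells the authors' deposited table gave FOSL1 -0.39 (adjusted p = 0.0112), EGR1 0.28 (adjusted p = 0.0310) and also JUNB 0.16 (adjusted p = 0.0446), with 12.9% of genes below 0.05. For the PCAF/GCN5 compound the authors' deposited tables had IER3 alone of the 10 below 0.05, in induced cells with 10.9% of genes, and none in non-induced cells, where 0.251% of genes were and 3 of the 10 had no adjusted p.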

How the data were processed

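RNA of 18 H1299 libraries in 6 groups of 3 was sequenced. The authors deposited 4 tables, each setting 1 compound against DMSO in 1 state. Their raw counts per gene were used here. Per the file headers the tables also hold scaled counts and their mean (a normalised signal), log2 fold changes with errors, a test score (the Wald statistic) and p-values, all made by the authors. The sign of their log2 values was reversed for induced cells, where the deposited contrast runs from compound to DMSO. The submitters' processing notes name StringTie and DESeq2. The aligner, build, annotation and counting program are not given in the sources used here; 79.6% of 58515 gene identifiers shared with GENCODE had its GRCh38 position. In 1 deposited table a broken line at ANK2 and a line of totals put other values into the DMSO count columns, so these counts came from the second table of non-induced cells and ANK2 was left out.

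CPM were counts on TMM library sizes over all 18 libraries. For each comparison only the libraries of its groups entered edgeR 4.0.16 under R 4.3.3 (TMM, filterByExpr, 2-sided quasi-likelihood F test, Benjamini-Hochberg over all genes tested, called below 0.05), with 95% intervals. All 10 genes passed the filter in every comparison. Alternatives were DESeq2 1.42.0 (size factors, Wald test), no filter, all groups in 1 fit, a replicate block and each library left out. The fits were tested on simulated data. A count of 0 allows up to 3 counts, or 0.103 to 0.331 CPM, for counting error only. The genes and lists were chosen with earlier results of these data known. The text names all 10 genes, at most 4 called genes per further list and comparison by adjusted p, and the 3 genes of most similar pattern; some genes that this rule or the checks cover are not reported here.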

Additional observations from a re-analysis of the deposited data

Results flagged for a closer look

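For 4 genes the effect of the p300/CBP compound differed between induced and non-induced cells, by a direct test with edgeR that called 1.28% of all genes. ATF3 had a log2 difference of 0.81 between the 2 effects (adjusted p = 0.0110). PLK2 had one of 0.70 (adjusted p = 0.00917), with a log2 fold change of 0.79 in induced and 0.10 in non-induced cells. LIF, a cytokine gene, had one of 0.89 (adjusted p = 0.0290), with 0.57 in induced and -0.31 in non-induced cells. PHLDA1 had one of -0.43 (adjusted p = 0.0102), with -0.44 in induced and -0.0021 in non-induced cells. ATF3, PLK2 and LIF were each at their highest group mean in induced cells with the compound, and PHLDA1 at its lowest. ATF3, PLK2 and PHLDA1 kept their calls in all 17 alternatives. LIF kept its call in 9, and lost it without any 1 of the 3 induced treated libraries, induced DMSO library 1, non-induced treated library 2 or 3, or non-induced DMSO library 1 or 2 (highest adjusted p = 0.131). The causes of these differences were not tested.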

How the results depend on the processing

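Of 90 results for single genes of the 10, each under 11 or 17 alternatives (1110 values), 1066 kept their direction and side of the threshold, 27 lost their call and 16 gained one; sign changes of values called in neither setting were not counted. JUND reversed: in induced cells with the p300/CBP compound its log2 fold change was 0.15 without induced DMSO library 3, and leave-one-out values ran from -0.14 to 0.15. For that comparison (2 of the 10 called) DESeq2 size factors called 1 (5.97% of all genes) and the replicate block 1 (3.53%). Leaving out 1 library called 1 to 4 (1.72% to 21.2%). For the same compound without induction (2 called) the fit of all 6 groups called 1 (3.84% of all genes) and leaving out 1 library 0 to 5 (3.5% to 15.8%). For induction (6 called) the replicate block called 3 (10.4% of all genes) and leaving out 1 library 3 to 8 (5.66% to 32.5%). Between the compounds, without a filter 3 were called in induced cells (1 as reported) and 2 in non-induced cells (0 as reported). Of all genes, 2.95% and 1.97% were then called. In non-induced cells DESeq2's Wald test called 1 (2.93% of all genes) and leaving out 1 library 0 to 1 (0.00646% to 2.0%). Gene calls lost under the block were EGR1 with the p300/CBP compound in induced cells (adjusted p = 0.0705), and FOSL2 (0.0783), JUNB (0.0516) and IER3 (0.0575) on induction. The causes were not tested. The replicate numbers share only a number: correlations of same-numbered deviations ran from -0.207 to 0.243, in no comparison above 0.1 for every pair, and all 3 libraries correlated best with their own number in 1 comparison, the PCAF/GCN5 compound against DMSO in non-induced cells. The counts for the PCAF/GCN5 compound against DMSO and for both interactions were the same under every alternative run. Of all genes, 0.189% to 2.2% were then called for that compound in induced cells and 0.0% to 0.159% in non-induced cells. For the interactions 0.775% to 2.73% (p300/CBP) and 0.0495% to 0.75% (PCAF/GCN5) were called. FOS and ATF3 rest on as few as 67 and 80 counts in the shallowest library.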
